A study of Mus musculus with 13 samples.

Results

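Genes of the brain's hyaluronan-bound matrix, 8 of the 32285 genes in the deposited tables, were followed through nuclei of the mouse hippocampus. They were matched by gene symbol and comprise the lecticans aggrecan (Acan), brevican (Bcan), neurocan (Ncan) and versican (Vcan), the link proteins Hapln1, Hapln2 and Hapln4, and tenascin-R (Tnr). The nuclei came from whole frozen hippocampi of 13 female mice of the hybrid strain that the series text spells C3B6F1 and the sample labels spell C3HB6F1. Young AL mice (n = 3) were 5 months old and ate ad libitum. The other groups were all 24 months old: old AL mice (n = 3) ate ad libitum, acute DR mice (n = 3) were on dietary restriction from 20 months of age, and long-term DR mice (n = 4) from 5 months of age. Young restricted mice are not among the groups, so restriction was compared with free feeding only in old animals. Each library is labelled as a separate hippocampus sample, and p-values below measure the spread between these libraries.

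Perineuronal nets are lattices of extracellular matrix around the soma and proximal dendrites of certain neurons, best known around fast-spiking parvalbumin interneurons. Hyaluronan chains form the backbone, lecticans bind hyaluronan through their amino-terminal domain, link proteins stabilise that bond, and tenascin-R cross-links lecticans at their other end. Related assemblies line nodes of Ranvier and fill the looser matrix between cells. In the hippocampus such matrix is also known around CA2 pyramidal neurons, a class for which no markers were fixed here. A nuclear transcript shows which cells make the message, not where the secreted protein settles.

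Most of the genes sit in pairs of a lectican and a link protein (coordinates of mouse build GRCm38). Bcan (chr3:87987531-88000230, minus strand) and Hapln2 (chr3:88021750-88027583, minus strand) lie 21.5 kb apart. Ncan (chr8:70093085-70120873, minus strand) and Hapln4 (chr8:70083457-70090862, plus strand) lie 2.22 kb apart, and Vcan (chr13:89655312-89742509, minus strand) and Hapln1 (chr13:89539796-89611652, plus strand) lie 43.7 kb apart. Each of these pairs has 0 annotated coding genes between its members. Acan (chr7:79053483-79115099, plus strand) has the link protein gene Hapln3 as its neighbour, 2 bp away on the opposite strand. Tnr (chr1:159523769-159931729, plus strand) has no such partner and spans 408 kb, longer than 98.9% of annotated genes. Vcan overlaps the antisense gene Gm4117, and Tnr overlaps Gm10530 on its own strand and Gm38039 on the other. These overlapping genes have their own entries in the deposited counts. How reads in the overlaps were assigned is not given in the sources used here and was not examined.

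The sequence upstream of the RefSeq start is shown for Acan, Bcan, Vcan and Hapln2, 4 genes whose highest levels in these data lie in PV-like or precursor-like, astrocyte-like, precursor-like and oligodendrocyte-like nuclei. Sequences are from RefSeq on build GRCm38.p6, 5′ to 3′ along the gene's strand, and capitals mark CG dinucleotides.
Acan: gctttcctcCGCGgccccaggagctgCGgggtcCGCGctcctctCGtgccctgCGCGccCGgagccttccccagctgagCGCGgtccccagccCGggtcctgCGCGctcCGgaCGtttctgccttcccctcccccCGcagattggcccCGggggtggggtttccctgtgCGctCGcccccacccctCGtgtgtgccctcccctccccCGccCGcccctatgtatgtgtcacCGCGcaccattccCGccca
Bcan: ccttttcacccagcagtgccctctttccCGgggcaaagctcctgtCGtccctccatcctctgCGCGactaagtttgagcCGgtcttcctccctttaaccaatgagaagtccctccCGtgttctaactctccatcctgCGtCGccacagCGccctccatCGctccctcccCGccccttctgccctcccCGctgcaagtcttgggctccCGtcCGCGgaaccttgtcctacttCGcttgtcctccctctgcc
Vcan: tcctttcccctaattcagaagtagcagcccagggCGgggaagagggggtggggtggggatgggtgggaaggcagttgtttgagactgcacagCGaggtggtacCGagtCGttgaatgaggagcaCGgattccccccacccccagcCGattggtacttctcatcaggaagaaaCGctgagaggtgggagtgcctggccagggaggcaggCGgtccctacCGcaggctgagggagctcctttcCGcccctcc
Hapln2: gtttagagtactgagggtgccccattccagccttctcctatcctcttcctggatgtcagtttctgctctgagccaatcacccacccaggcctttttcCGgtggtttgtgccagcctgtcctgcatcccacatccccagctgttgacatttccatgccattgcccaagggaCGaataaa
The Acan window (chr7:79052976-79053225, plus strand) holds 26 CG dinucleotides, more than 90.4% of the 32851 promoters of the same length. Bcan (chr3:88000357-88000606, minus strand) holds 16 and Vcan (chr13:89742513-89742762, minus strand) holds 10, more than 74.6% and 62.2% of promoters, with a median of 6. The Hapln2 window (chr3:88027584-88027761, minus strand) is 178 bases long and holds 2, more than 28.2% of promoters cut to the same length, whose median is 3. A SOX-type core, ACAAT on either strand, had 0 matches in each of the 4 windows. It is present in 27.7% of promoters over 250 bases and in 21.4% over 178 bases. A match or its absence describes these letters only.

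The 13 libraries held 105759 barcodes, of which 98041 remained after filters and the removal of 7386 called doublets. Clustering without the 8 genes and their pathway list gave 35 clusters. Of these 24, with 82655 nuclei, met a naming rule on fixed markers and were named as 1 of 15 classes, written here as "X-like". The 5070 inhibitory nuclei were clustered again, and 2958 fell in 5 named subclasses. Library totals ran from 38546292 to 80538090 UMIs (unique molecular identifiers, counted RNA molecules), and library pairs shared 4 to 40 barcodes. The libraries numbered 1 stood apart: they held 48, 110, 162 and 184 oligodendrocyte-like nuclei in the young AL, old AL, acute DR and long-term DR groups, against 624 to 1652 in the other 9. The PV-like (parvalbumin) subclass had a mean Pvalb level of 62.1 CPM and a mean Sst level of 31.6 CPM. Levels are in CPM (UMIs of a gene per 1000000 UMIs of a class in a mouse), given as mean ± SD over mice with at least 20 nuclei of that class. Classes were found by clustering, so differences between classes are descriptions without a test.

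Acan encodes aggrecan, the lectican most often used to outline perineuronal nets. Its message was scarce, 1069 UMIs in all nuclei, and was highest relative to all UMIs in the oligodendrocyte-precursor-like class (22.8 ± 6.49 CPM, n = 13) and the PV-like subclass (13.5 ± 7.88 CPM, n = 13). Precursor-like sums exceeded PV-like sums in 10 of 13 mice and the ranges overlapped. The Sst-like, Lamp5-like and Cck-like sums held 0 Acan UMIs, which allows pooled levels of up to 0.753, 1.1 and 0.976 CPM (3 counts over the subclass, counting error only).

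In the PV-like sums Acan stood at 17.0, 3.62 and 27.6 CPM in young AL mice 1, 2 and 3. It stood at 22.1, 19.7 and 2.05 CPM in old AL mice 1, 2 and 4, at 9.50, 11.4 and 9.48 CPM in acute DR mice, and at 15.6, 22.3, 10.1 and 5.35 CPM in long-term DR mice. These values rest on 1 to 22 UMIs per mouse, and the groups overlapped. In precursor-like sums the young AL mice stood at 41.2, 27.6 and 21.1 CPM, against 15.5 to 27.9 CPM in the other 10 mice. The 6 precursor markers summed to 501 to 993 CPM over the PV-like sums. Most of it was Pcdh15 (513 CPM) and Lhfpl3 (161 CPM). Pdgfra, the defining growth factor receptor of precursors, averaged 0.93 CPM there against 690 CPM in the precursor-like class. C1ql1, Cacng4 and Megf11 averaged 4.39, 5.23 and 2.54 CPM in PV-like sums and 142, 729 and 893 CPM in the precursor-like class. Granule-like sums held Pdgfra, C1ql1, Cacng4 and Megf11 at 0.96, 0.59, 0.49 and 16.5 CPM. The part of precursor RNA in the PV-like Acan values was not tested. Thinned to 1000 UMIs per nucleus, 1.92% ± 2.19 of PV-like nuclei had an Acan UMI (11.9% unthinned, median 9650 UMIs), and 2.26% ± 0.98 of precursor-like nuclei (7.26% unthinned, median 3376.5 UMIs). The share in oligodendrocyte-like nuclei was 0.03% (0.04% unthinned, median 1884 UMIs). Dentate-granule-like nuclei, with 1.87 ± 0.52 CPM, supplied 49.9% of all Acan UMIs and 41.8% of UMIs of all genes.

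Brevican is a short lectican that occurs both secreted and anchored to the membrane. By level it was highest in the astrocyte-like and precursor-like classes, followed by the PV-like subclass among the named ones. These levels do not rank the classes by their share of all Bcan UMIs, because the classes differ in size. Bcan stood at 465 ± 78.3 CPM in the astrocyte-like class, 321 ± 74.9 CPM in the precursor-like class and 97.8 ± 30.5 CPM in the PV-like subclass (n = 13 each). Astrocyte-like sums exceeded precursor-like sums in 13 of 13 mice with overlapping ranges, and the precursor-like range lay wholly above the PV-like range. The Sst-like subclass had 30.1 CPM and the Lamp5-like subclass 1.37 CPM. CA1-like neurons (31.8 CPM) and granule-like neurons (3.89 CPM) differed as well, although both are excitatory principal neurons.

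Per mouse, Bcan in PV-like sums was 106, 163 and 124 CPM in young AL mice and 97.1, 86.8 and 88.3 CPM in old AL mice. It was 96.9, 64.8 and 117 CPM in acute DR mice and 88.0, 125, 72.4 and 42.8 CPM in long-term DR mice. The young range lay above the old AL range, but the difference was not called (log2 change -0.42, edgeR adjusted p = 0.491). Both restricted groups overlapped old AL. After thinning, 36.4% ± 4.84 of astrocyte-like nuclei had a Bcan UMI (68.0% unthinned, median 2699 UMIs), against 0.42% of granule-like nuclei (2.72% unthinned, median 6373 UMIs).

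Neurocan, a lectican prominent in the developing brain, was the most evenly spread of the lecticans. Ncan reached 123 ± 27.0 CPM in astrocyte-like sums and 71.0 ± 17.7 CPM in precursor-like sums, and the astrocyte-like value was higher in 13 of 13 mice. Neurons were lower: 39.3 CPM in subicular-or-cortical-like, 36.5 ± 3.77 CPM in granule-like, 31.6 CPM in Lamp5-like and 31.4 CPM in CA1-like sums. The PV-like subclass had less, 16.1 CPM, and the oligodendrocyte-like class 6.32 CPM. Granule-like nuclei supplied 42.4% of all Ncan UMIs and astrocyte-like nuclei 10.7%. After thinning, 10.9% of astrocyte-like nuclei had an Ncan UMI (25.3% unthinned), against 0.82% of oligodendrocyte-like nuclei (1.26% unthinned).

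Versican, the largest lectican and one known from nodes of Ranvier, was concentrated in precursors. Vcan stood at 1140 ± 186 CPM in the precursor-like class, 116 ± 30.4 CPM in the Lamp5-like subclass (n = 10) and 44.2 ± 10.9 CPM in the astrocyte-like class, and these 3 ranges did not overlap. PV-like sums held 2.92 CPM and oligodendrocyte-like sums 5.07 CPM. The precursor-like class held 2.93% of nuclei and 1.59% of UMIs but 62.0% of Vcan UMIs. After thinning, 63.4% of precursor-like nuclei had a Vcan UMI (91.5% unthinned, median 3376.5 UMIs), against 0.57% of oligodendrocyte-like nuclei (1.02% unthinned).

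Hapln1, the link protein of cartilage and of many nets, had an interneuron and an astrocyte source. It stood at 120 ± 34.0 CPM in Lamp5-like sums (n = 10), 84.2 ± 18.8 CPM in astrocyte-like sums and 25.0 CPM in Cck-like sums (n = 8). Lamp5-like sums exceeded astrocyte-like sums in 8 of 10 mice with overlap, and astrocyte-like sums lay wholly above Cck-like sums. PV-like sums held 13.8 CPM and precursor-like sums 10.4 CPM. After thinning, 12.7% ± 6.25 of Lamp5-like nuclei had a Hapln1 UMI (48.6% unthinned, median 7375.5 UMIs), against 0.04% of granule-like nuclei (0.31% unthinned).

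Hapln2, the link protein of nodes of Ranvier also called Bral1, was an oligodendrocyte-like message. Oligodendrocyte-like sums averaged 315 ± 78.7 CPM, all other classes averaged 7.94 CPM or less, and 91.8% of all Hapln2 UMIs came from this class. At clustering resolution 2 the mean was 198 CPM, where a cluster of 5061 nuclei led by Enpp6 and others, Hapln2 among them, stayed outside the class. Its best match was the oligodendrocyte list, with 7 raised markers, but its top genes held more markers of another class and the naming rule left it unnamed. Per mouse the oligodendrocyte-like values were 388, 381 and 313 CPM in young AL, 230, 318 and 355 CPM in old AL, 266, 208 and 397 CPM in acute DR, and 322, 393, 152 and 367 CPM in long-term DR mice. All 4 groups overlapped. After thinning, 23.7% ± 6.10 of oligodendrocyte-like nuclei had a Hapln2 UMI (40.0% unthinned), against 0.05% of granule-like nuclei (0.43% unthinned).

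Hapln4, the brain link protein also called Bral2, was near the detection limit. It was highest in PV-like sums (14.2 ± 7.61 CPM, n = 13) and lower in CA3-like (4.49 CPM) and CA1-like (4.2 CPM) sums. The microglia-like mean of 10.9 ± 32.1 CPM rests mostly on 3 UMIs in young AL mouse 1, whose sum held 117 CPM, with 7.76 CPM or less in the other 12 mice. Per mouse the PV-like values were 30.1, 21.7 and 4.59 CPM in young AL, 14.7, 11.5 and 12.3 CPM in old AL, 17.1, 22.9 and 7.90 CPM in acute DR, and 17.8, 13.4, 6.03 and 5.35 CPM in long-term DR mice. The groups overlapped. After thinning, 1.77% ± 2.61 of PV-like nuclei had a Hapln4 UMI (13.4% unthinned), against 0.10% of granule-like nuclei (0.78% unthinned).

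Tenascin-R, a trimeric glycoprotein known as a product of oligodendrocyte lineage cells and some neurons, had by far the most UMIs, 437797. Tnr stood at 3854 ± 462 CPM in precursor-like sums, 849 ± 86.3 CPM in granule-like, 694 ± 119 CPM in CA1-like, 580 ± 66 CPM in CA3-like and 488 ± 65.9 CPM in PV-like sums. Precursor-like sums lay wholly above granule-like sums, which exceeded CA1-like sums in 12 of 13 mice. Among the named interneuron subclasses the PV-like value was above Vip-like (277 CPM), Lamp5-like (206 CPM), Sst-like (177 CPM) and Cck-like (135 CPM) means. Some unnamed interneuron clusters were as high or higher: those of 320, 385 and 265 nuclei held Tnr at 828, 559 and 491 CPM (n = 8, 10 and 7). The unnamed clusters of 273 and 252 nuclei held less, 343 and 221 CPM (n = 9 and 5). Macrophage-like sums held 490 ± 153 CPM (n = 8), mural-like sums 321 ± 114 CPM (n = 9) and endothelial-like sums 199 ± 142 CPM (n = 9), small classes for which RNA from other nuclei was not tested. Median depth of macrophage-like nuclei ran from 1262 UMIs in long-term DR mouse 1 to 7216 UMIs in acute DR mouse 2. At clustering resolution 2 the macrophage-like cluster held 46.85% called doublets before their removal. Mature oligodendrocyte-like sums held 36.7 CPM, astrocyte-like sums 33.7 CPM and microglia-like sums 48.0 CPM. After thinning, 95.4% ± 1.64 of precursor-like nuclei had a Tnr UMI (99.7% unthinned) and 54.7% of granule-like nuclei, against 3.00% of oligodendrocyte-like nuclei (5.84% unthinned). The CA3-like class also held the hilar mossy cell genes Drd2, Calb2 and Csf2rb2 at 7.64, 13.1 and 15.7 CPM, so mossy cells were not separated from it.

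**Figure D1:**
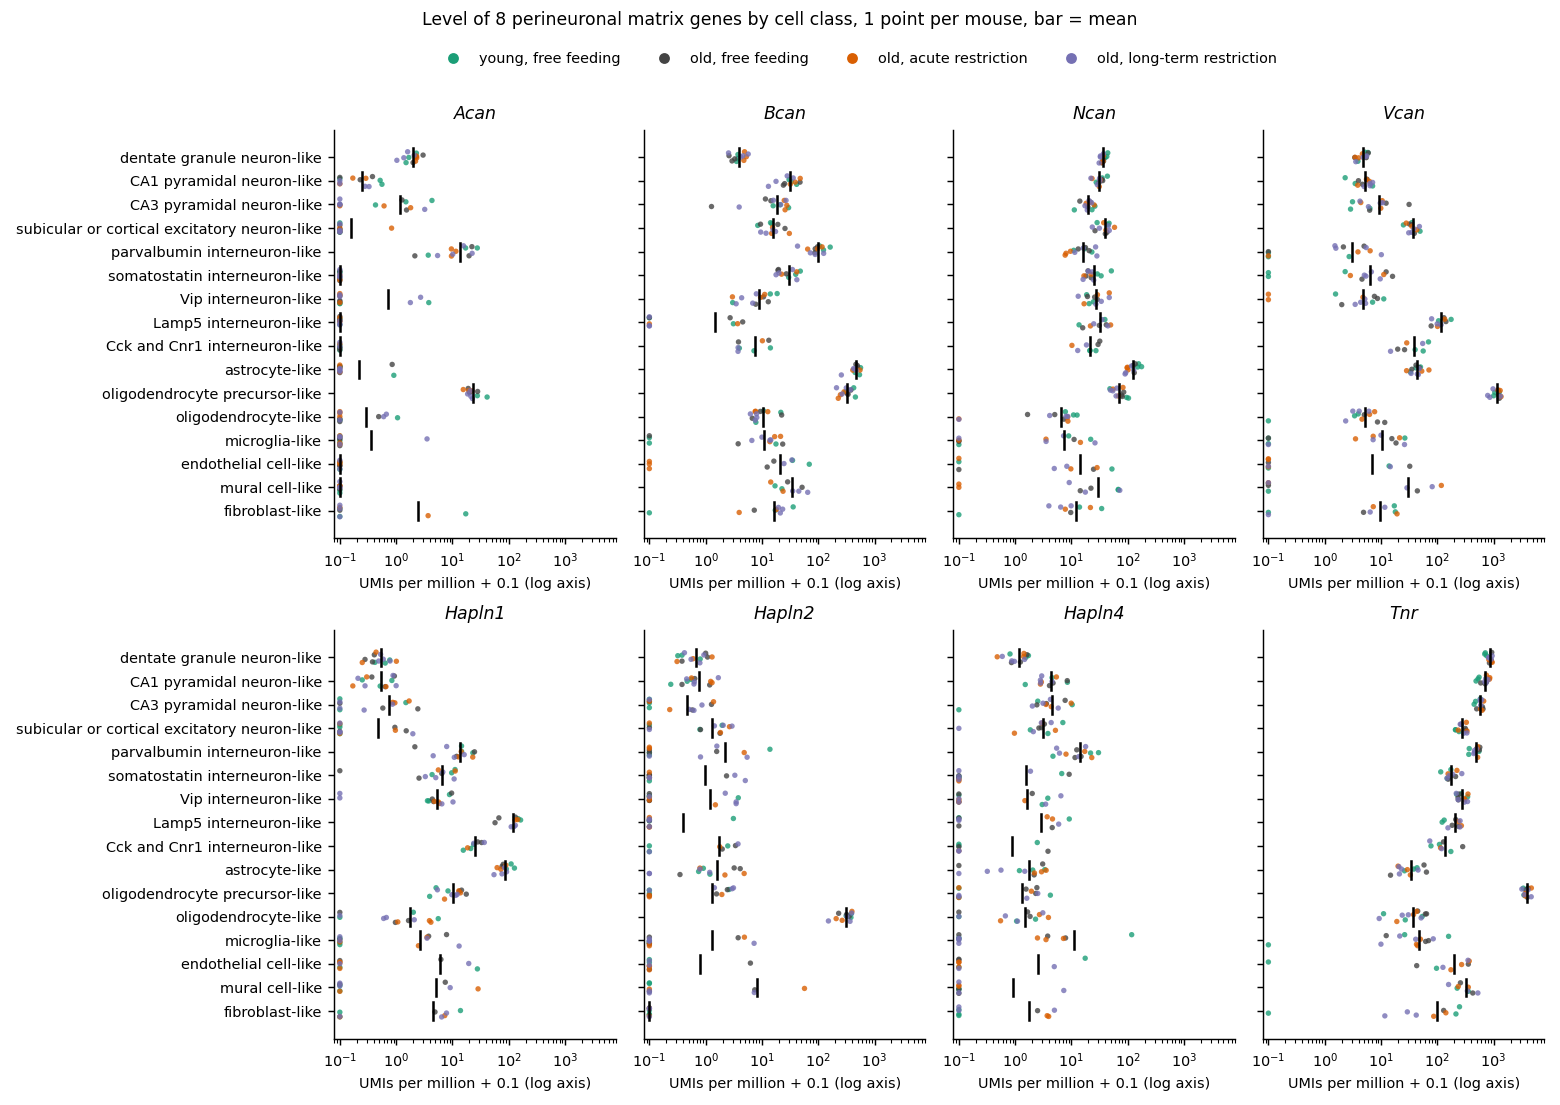
Level of each of the 8 genes by class and interneuron subclass, as CPM plus 0.1 on a log axis, with 1 point for each mouse coloured by group and a bar at the mean. Hapln2 is highest in the oligodendrocyte-like class at 315, Vcan and Tnr in the precursor-like class at 1140 and 3854, and Bcan in the astrocyte-like class at 465.

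**Figure D2:**
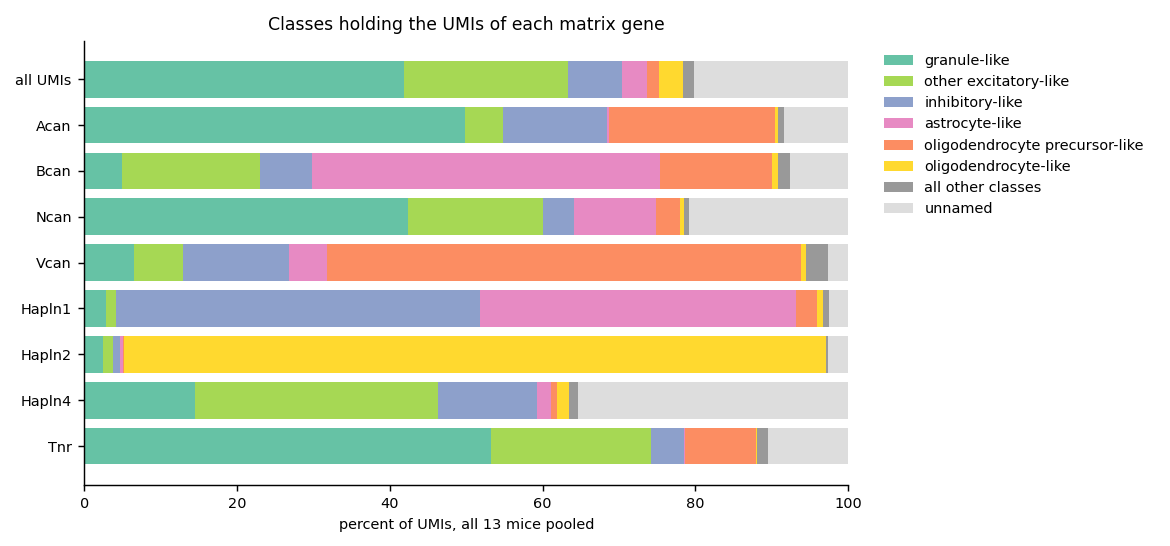
Percent of each gene's UMIs, all 13 mice pooled, that came from each class (coloured stretches of a bar), with the UMIs of all genes in the top bar. Oligodendrocyte-like nuclei give 91.8% of Hapln2 UMIs, precursor-like nuclei 62.0% of Vcan UMIs and granule-like nuclei 53.2% of Tnr UMIs.

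Within the interneurons Acan, Bcan and Hapln4 were highest in other clusters than Vcan and Hapln1. The 3 PV-like clusters (494, 191 and 127 nuclei) held Acan, Bcan and Hapln4 at 14.3, 110 and 18.8 CPM in the first, 13.3, 99.6 and 15.2 CPM in the second, and 6.43, 70.7 and 12.9 CPM in the third, which had enough nuclei in only 1 mouse. Bcan was also present without as much of the other genes: an unnamed cluster of 273 nuclei held Bcan at 70.5 CPM, Acan at 2.39 CPM and Hapln4 at 6.70 CPM (n = 9). Vcan and Hapln1 marked other interneurons. An unnamed cluster of 385 nuclei, led by Sfta3-ps, held Vcan at 484 ± 73.4 CPM and Hapln1 at 343 ± 99.7 CPM (n = 10), with Acan listed at 0. A further unnamed cluster of 265 nuclei held them at 134 and 98.0 CPM (n = 7).

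Vcan and Hapln1 also met in single nuclei. Of the 5070 interneuron-like nuclei, 866 had a Vcan UMI, 931 a Hapln1 UMI and 470 both. Hapln1 was detected in 54.3% of nuclei with Vcan and in 11% of those without, at median depths of 9068.5 and 8120 UMIs. Inside the Lamp5-like subclass the shares were 50.3% and 46.0%, inside the unnamed cluster of 385 nuclei 84.8% and 70.2%, and in the precursor-like class 3.50% and 3.40%. In the astrocyte-like class they were 25.0% and 19.6%. Nuclei with Vcan had the higher median depth in each set, as in the unnamed cluster (8606 against 6909 UMIs), and the part of depth was not tested. The difference over all interneurons was larger than the difference inside any of these sets.

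**Figure D3:**
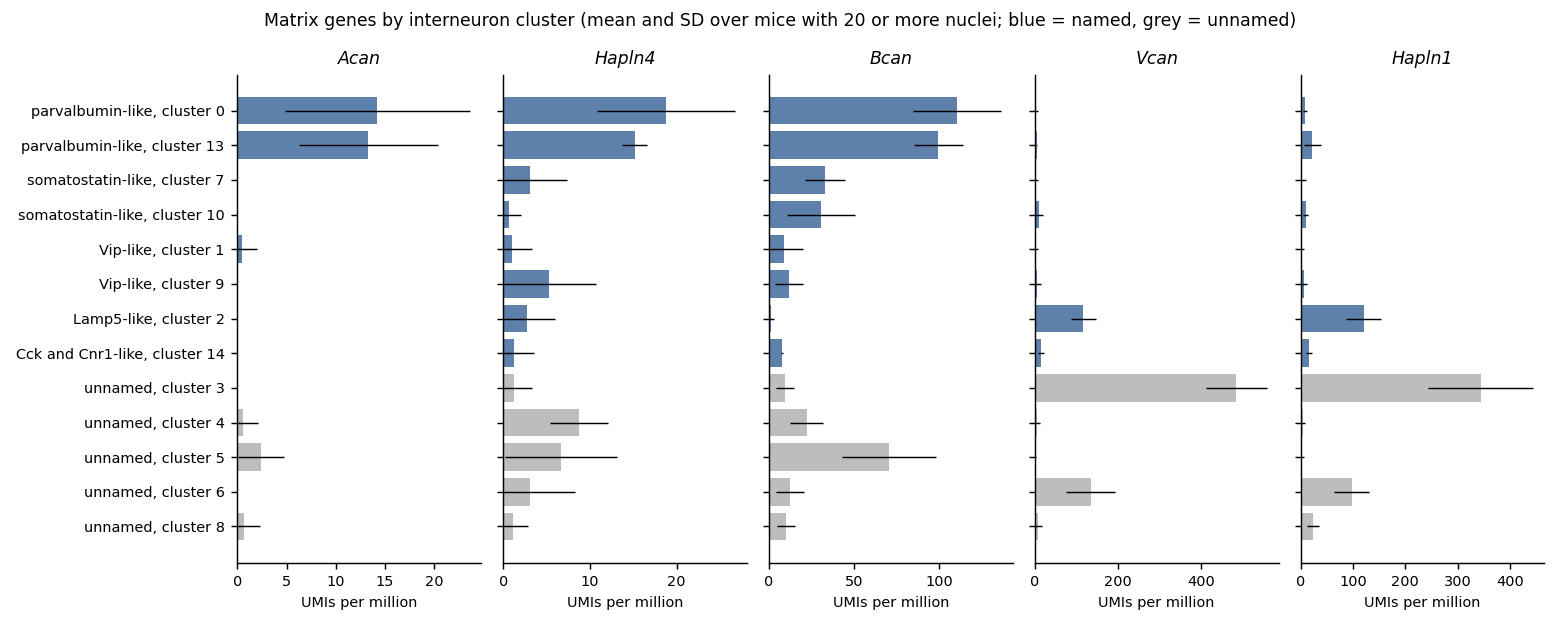
Levels of 5 genes by interneuron cluster, in CPM, as mean (bar) and SD (line) over mice with 20 or more nuclei, named clusters in blue and unnamed ones in grey. Acan, Bcan and Hapln4 are highest in the PV-like clusters, and Vcan and Hapln1 reach 484 and 343 in the unnamed cluster of 385 nuclei.

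Ageing was asked by old AL against young AL mice. Of 47 tests (a gene in 1 of the 10 classes where it passed the filter on low counts), 1 was called by edgeR's quasi-likelihood test at an adjusted p below 0.05, against 1.54% of all gene and class pairs. Group ranges lay apart in 14 of the 47, against 21.1% of all pairs, and 10 had an unadjusted p below 0.05, against 17.7%. These counts were near the background. Their median log2 change was 0.02, beside -0.03 over all genes. The single call was Tnr in granule-like neurons.

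Tnr in granule-like sums was 714, 755 and 697 CPM in young AL mice and 928, 908 and 844 CPM in old AL mice. It was 824, 948 and 918 CPM in acute DR mice and 910, 830, 943 and 819 CPM in long-term DR mice. All 10 old mice lay above all 3 young mice, and the 3 old groups overlapped. Tnr rose by 0.48 ± 0.11 on the log2 scale with age (SE, edgeR adjusted p = 0.0436, n = 3 against 3), in a class where 2.46% of genes were called higher.

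This call was marginal. DESeq2 also made it (log2 change 0.47, adjusted p = 0.00316). By edgeR the call held with the replicate block (0.55, adjusted p = 0.0169) and with no filter (0.49, adjusted p = 0.0437). It also held with the term for the libraries numbered 1 (0.48, adjusted p = 0.0135) and with doublets kept (0.48, adjusted p = 0.0427). Other fits lost it. Its adjusted p was 0.0662 without the libraries numbered 1 (log2 change 0.46) and 0.0564 when scaled to total UMIs (0.31), a scaling that moves the median change of all genes in the class from -0.04 to -0.21. With a term for depth the change was 0.32 (adjusted p = 0.616), and after removing a trend over gene length it was 0.15 (adjusted p = 0.348). Granule-like nuclei of young AL mice had median depths of 6562.5, 3881 and 5614.5 UMIs and those of old AL mice 12794, 7084 and 8178 UMIs. Leaving out 1 library gave 0.43 to 0.53 and kept the call only without young AL mouse 1 or long-term DR mouse 2 or 3. The call was lost without any of the other 10 libraries, with edgeR adjusted p from 0.0507 to 0.175. Whether depth or gene length has a part in the difference was not tested beyond these values.

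Granule-like clusters also differed in their mix: 1 of 6 clusters held 48.7% to 63.2% of granule-like nuclei in young AL mice and 11.8% to 23.6% in old AL mice. Tnr was higher in old AL mice inside each of the 6 clusters, without overlap of the ranges. In that first cluster Tnr ran from 753 to 787 CPM in young AL and from 1038 to 1104 CPM in old AL mice, and in the next from 587 to 664 and from 735 to 804 CPM. The 6 clusters come from the same libraries and are not separate tests of the difference. How many of all genes had separate ranges inside these clusters was not counted, so this agreement stands without a background. The summed level of precursor markers in granule-like sums was 94.2 to 128 CPM in young AL and 115 to 148 CPM in old AL mice, with overlap. That of oligodendrocyte markers was 78.2 to 109 and 102 to 141 CPM, also with overlap. Astrocyte markers ran from 196 to 210.5 CPM in young AL and from 220.3 to 222 CPM in old AL mice, without overlap. Their part in the Tnr difference was not tested.

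Tnr had a positive ageing change in 10 of 10 classes, from 0.08 to 1.55 with a median of 0.43, and 9 of the 10 did not pass the test. The sign was not stable in the weakest of them: removing the length trend turned the astrocyte-like (-0.38) and precursor-like (-0.07) changes, the depth term the precursor-like one (-0.04) and the replicate block the mural-like one (-0.23). CA1-like sums held 529, 553 and 488 CPM in young AL and 592, 748 and 709 CPM in old AL mice, without overlap (log2 change 0.51, edgeR adjusted p = 0.221). Inhibitory-like sums held 311, 342 and 377 CPM in young AL and 391, 430 and 439 CPM in old AL mice, also without overlap (0.39, edgeR adjusted p = 0.106). DESeq2 called both of these, with adjusted p of 0.00458 and 0.00947. By edgeR the inhibitory-like change also passed with the replicate block (0.44, adjusted p = 0.0297) and with the term for the libraries numbered 1 (0.39, adjusted p = 0.0368). With the length trend removed the inhibitory-like change was 0.10 and the CA1-like one 0.26 (edgeR adjusted p = 0.663 and 0.383). Neither passed by edgeR with the depth term (0.38 and 0.53), with total UMI scaling (0.29 and 0.38) or without the libraries numbered 1 (0.39 and 0.58). Subicular-or-cortical-like sums had means of 222 CPM in young AL and 300 CPM in old AL mice, without overlap (0.52, edgeR adjusted p = 0.238). That change was called with no filter (0.58, edgeR adjusted p = 0.0411). It was 0.26 with the length trend removed (edgeR adjusted p = 0.651) and 0.27 with the depth term (edgeR adjusted p = 0.909). Within the interneuron subclasses the Tnr change was 0.45 in PV-like, 0.74 in Lamp5-like, 0.31 in Sst-like and -0.15 in Vip-like sums, none called by edgeR, and the Vip-like change was negative in all 9 fits listed for it (-0.38 to -0.06). Differences between subclasses were not tested. In the precursor-like class, where Tnr is highest, young AL mice held 3377, 3468 and 3937 CPM and old AL mice 3710, 3986 and 4127 CPM, and the ranges overlapped (0.20, edgeR adjusted p = 0.469).

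Tnr in the oligodendrocyte-like class was low and its call depended on the fit. Young AL mice held 53.9, 11 and 26.9 CPM, old AL mice 64.4, 61.3 and 44.8 CPM, acute DR mice 19.0, 43.2 and 37.8 CPM, and long-term DR mice 9.19, 30.5, 51.5 and 23.8 CPM. The old AL values overlapped those of young AL and long-term DR mice and lay above those of acute DR mice. Precursor markers in these sums were 463 to 558 CPM in young AL, 478 to 543 CPM in old AL, 403 to 426 CPM in acute DR and 464 to 506 CPM in long-term DR mice, so they too were higher in old AL than in acute DR mice, and their part in the Tnr values was not tested. With age the log2 change was 1.39 ± 0.43 (SE, edgeR adjusted p = 0.0598), not called. It was called with no filter (1.45, adjusted p = 2.94e-05), with the replicate block (1.85, adjusted p = 0.000993), without the libraries numbered 1 (1.44, adjusted p = 0.0436) and without long-term DR mouse 1 (1.37, adjusted p = 0.0318) or 3 (1.38, adjusted p = 0.00806). It was 0.49 with the depth term (adjusted p = 0.946) and 0.83 with the length trend removed (adjusted p = 0.233).

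Under long-term restriction the same class gave a Tnr change of -0.76 ± 0.31 (SE, edgeR adjusted p = 0.446), not called. It was called with no filter (-0.77, adjusted p = 0.0299), with the replicate block (-1.02, adjusted p = 0.0396) and without long-term DR mouse 3 (-1.15, adjusted p = 0.0285). Without the libraries numbered 1, edgeR also called Tnr lower in the astrocyte-like class (adjusted p = 0.0398). The ageing and restriction comparisons share the old AL libraries.

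**Figure D4:**
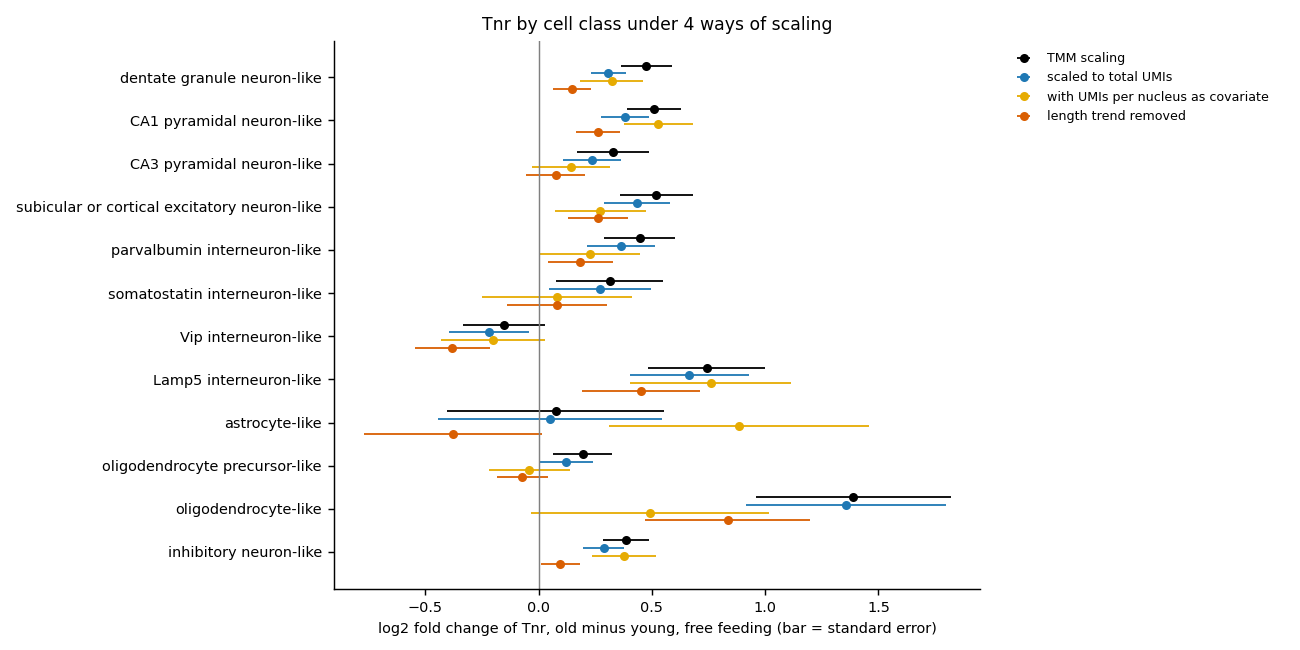
Log2 change of Tnr from young AL to old AL by class (points, with standard errors as lines) under 4 ways of scaling, given by colour. Granule-like neurons go from 0.48 with TMM scaling to 0.15 with the length trend removed, and the precursor-like and astrocyte-like classes lie on both sides of 0.

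Hapln1 gave lower values in old AL mice in its main classes, none of them called. Inhibitory-like sums held 60.5, 63.2 and 63.0 CPM in young AL and 36.3, 46.1 and 38.4 CPM in old AL mice, with separate ranges (log2 change -0.53, edgeR adjusted p = 0.136). With a term for the libraries numbered 1 this difference passed (-0.54, edgeR adjusted p = 0.0463). Acute DR mice held 37.5, 59.0 and 59.1 CPM and long-term DR mice 43.4, 43.6, 35.4 and 36.3 CPM there, both overlapping old AL. The unnamed cluster with Hapln1 at 343 CPM held 27 of 531, 24 of 419 and 35 of 274 inhibitory-like nuclei in young AL mice. In old AL mice it held 13 of 296, 34 of 380 and 33 of 342. In acute DR mice it held 50 of 797, 24 of 171 and 47 of 404, and in long-term DR mice 42 of 613, 31 of 418, 13 of 237 and 12 of 188. The part of this mix in the Hapln1 values was not tested.

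Astrocyte-like Hapln1 was 126, 110 and 90.5 CPM in young AL and 79.8, 81.9 and 76.2 CPM in old AL mice (log2 change -0.41, edgeR adjusted p = 0.330). Lamp5-like sums held 148 and 163 CPM in young AL mice 1 and 2, and 131, 66.8 and 57.0 CPM in old AL mice (-0.71, edgeR adjusted p = 0.348). In the precursor-like class Hapln1 went the other way, with means of 5.70 CPM in young AL and 15.0 CPM in old AL mice (1.44, edgeR adjusted p = 0.148). Young AL sums of this class held only 398455 to 520218 UMIs of all genes, so the young AL mean rests on few Hapln1 UMIs.

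The lecticans and Hapln2 gave no call with age. Ncan in astrocyte-like sums was 176, 156 and 150 CPM in young AL and 130, 136 and 124 CPM in old AL mice, with separate ranges (log2 change -0.26, edgeR adjusted p = 0.410). Vcan in precursor-like sums was 1263, 1004 and 1051 CPM in young AL and 1197, 1220 and 1267 CPM in old AL mice, with overlap (0.21). The Vcan change was above 0 in 8 of 8 classes, from 0.00 to 1.77 with a median of 0.19, and 2 had an unadjusted p below 0.05 (lowest edgeR adjusted p = 0.103). With total UMI scaling it turned negative in the inhibitory-like and astrocyte-like classes. The change of Bcan was above 0 in 1 of 8 classes (median -0.10) and that of Ncan in 2 of 8 (median -0.07), both of which turned negative with that scaling. Bcan in astrocyte-like sums was 541, 565 and 451 CPM against 466, 495 and 497 CPM, also with overlap (-0.08). Hapln2 in oligodendrocyte-like sums had a log2 change of -0.15 ± 0.36 (SE). In interneuron subclasses 0 of 15 tests were called by edgeR, against 0.0399% of all pairs there, 3 had an unadjusted p below 0.05, against 11.7%, and DESeq2 also called 0.

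Restriction was asked in old mice by each restricted group against old AL, so both comparisons share the old AL libraries. Long-term restriction gave 0 calls in 47 tests by edgeR and by DESeq2, against 0.0429% of all pairs for edgeR, and 7 tests had an unadjusted p below 0.05, against 4.64% of all pairs. Acute restriction gave 0 calls by either tool, against 0.211% of all pairs, with 5 tests at an unadjusted p below 0.05, against 4.96%. Long-term against acute restriction gave 0 calls by either tool, against 0.0103% of all pairs, with 3 tests at that level, against 2.89%. Group ranges lay apart in 3, 5 and 2 of the 47 tests, against 7.07%, 12.4% and 4.84% of all pairs. The median log2 changes of the 47 tests were -0.05, 0.01 and -0.17, beside 0.01, 0.00 and 0.00 over all genes. The interneuron subclasses gave 0 calls by either tool in each of these 3 comparisons, where 0.0% of all pairs were called, with 0, 2 and 1 tests at an unadjusted p below 0.05, against 3.39%, 3.4% and 2.69%.

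Ncan in the astrocyte-like class had the lowest unadjusted p of its tests under both restrictions. Acute DR mice held 98.6, 101 and 97.0 CPM, below every old AL mouse (log2 change -0.43, edgeR adjusted p = 0.494). Long-term DR mice held 89.5, 117, 128 and 92.0 CPM, overlapping old AL (-0.35, edgeR adjusted p = 0.900). Neither passed the test.

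Bcan in the precursor-like class was 287, 227 and 247 CPM in acute DR mice, below the 333, 338 and 379 CPM of old AL mice (log2 change -0.45, edgeR adjusted p = 0.662). Long-term DR mice held 265, 315, 211 and 375 CPM and overlapped old AL. The acute change of Bcan was above 0 in 5 of 8 classes. In granule-like sums it was 0.78, from 2.84 to 4.89 CPM (edgeR unadjusted p = 0.00579). In CA3-like sums it was 1.28, from 8.97 to 26.0 CPM (edgeR unadjusted p = 0.0173). Both had separate ranges and neither was called. Ncan in this class had means of 80.7 CPM in old AL and 57.3 CPM in long-term DR mice, with separate ranges (-0.48, edgeR unadjusted p = 0.0199, not called). Vcan there was 1359, 1311 and 1196 CPM in acute DR and 1329, 786, 857 and 979 CPM in long-term DR mice, overlapping old AL in both groups. The lowest unadjusted p of the long-term tests was that of Vcan in oligodendrocyte-like sums (log2 change -1.23, edgeR unadjusted p = 0.00434, adjusted p = 0.219). Means there were 8.37 CPM in old AL and 3.83 CPM in long-term DR mice, with overlap. The long-term change of Vcan was above 0 in 3 of 8 classes.

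**Figure D5:**
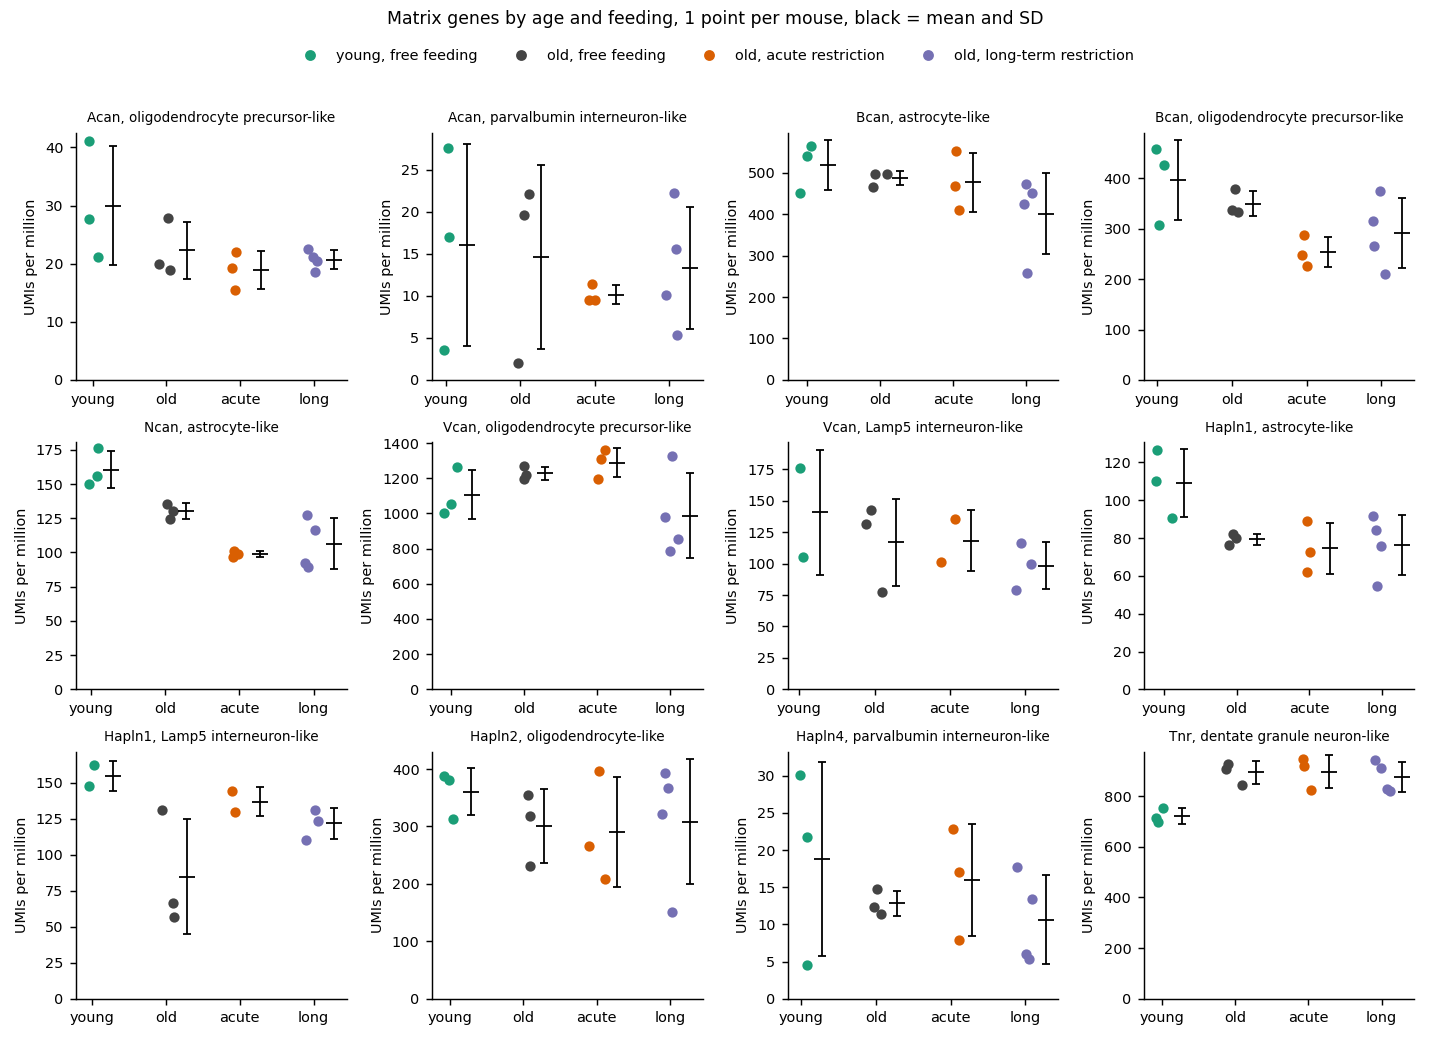
Level of the genes in classes where they are high, in CPM, by group, with 1 point for each mouse and the mean and SD in black. Astrocyte-like Ncan lies at 150 to 176 in young AL, 124 to 136 in old AL and 97.0 to 101 in acute DR mice.

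A list of 73 matrix gene symbols gave the surroundings of the 8. It held chondroitin sulfate synthesis and sulfation enzymes, hyaluronan enzymes, other proteoglycans, proteases with their inhibitors and receptors. In the files 72 of the symbols were found, all but Tmem2. Of the genes found, 66 passed the filter on low counts in at least 1 class, making 437 tests per comparison. With age 7 tests were called by edgeR, 6 higher and 1 lower, against 1.54% of all gene and class pairs, and the median log2 change was 0.13. By role these were 2 of 95 tests of chondroitin sulfate synthesis, 1 of 47 of sulfation and 2 of 95 of other proteoglycans, with 1 of 101 of receptors, all higher, and 1 of 73 of proteases and inhibitors, lower. The 19 tests of hyaluronan breakdown and the 7 of link proteins and hyaluronan synthesis gave 0 calls. The count was 2 without young AL mouse 2 or old AL mouse 2, 3 without old AL mouse 4, 4 without acute DR mouse 3, 14 without long-term DR mouse 3 and 18 without young AL mouse 1. It was several times higher with the term for the libraries numbered 1 or the replicate block, fits for which no share over all genes is given. It was lower with the depth term or the length trend removed (counts in the closing section). Long-term restriction gave 0 calls by edgeR and DESeq2 (median -0.06), where edgeR called 0.0429% of all pairs. In it 23 tests had an edgeR unadjusted p below 0.05, against 4.64% of all pairs. Long-term against acute gave 0 by both tools, where edgeR called 0.0103% of all pairs. There 31 tests were at that level, against 2.89% of all pairs. Acute restriction gave 3 by edgeR and by DESeq2, 1 higher and 2 lower by edgeR, against 0.211% of all pairs (median -0.02). All 3 edgeR calls were in the oligodendrocyte-like class, where 3 of 44 list genes and 1.84% of all genes were called.

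In granule-like neurons 2 of 12 chondroitin sulfate synthesis genes and 1 of 6 sulfation genes were called higher with age, 3 of 57 list genes in all, against 2.46% of all genes called higher there. Xylt1, the xylosyltransferase that starts the chain, went from 41.8 to 54.1 CPM (log2 change 0.54, edgeR adjusted p = 0.0421). Csgalnact1, which adds the first galactosamine, went from 236 to 288 CPM (0.45, edgeR adjusted p = 0.0448). Chst11, a chondroitin 4-O-sulfotransferase, went from 80.2 to 106 CPM (0.56, edgeR adjusted p = 0.0461). The old AL range lay above the young AL range for each. With the length trend removed they were 0.26, 0.14 and 0.31, and none was called. Scaled to total UMIs they were 0.37, 0.29 and 0.40, and none was called (edgeR adjusted p = 0.119, 0.0627 and 0.0736). The calls of Xylt1, Csgalnact1 and Chst11 were lost in 7, 8 and 10 of the 13 fits that left out 1 library.

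In the oligodendrocyte-like class Timp3, a matrix-bound inhibitor of metalloproteinases, fell with age by 1.92 ± 0.36 on the log2 scale, from 33.8 to 7.89 CPM (SE, edgeR adjusted p = 0.00148). In this class 3 of 44 list genes were called higher and 1 lower, against 3.66% and 4.19% of all genes. The cell adhesion gene Nrcam rose from 37.6 to 76.7 CPM (1.01, edgeR adjusted p = 0.0109), the glypican Gpc5 from 28.7 to 57.6 CPM (0.99, edgeR adjusted p = 0.0130) and the testican Spock1 from 478 to 649 CPM (0.47, edgeR adjusted p = 0.0264). After removing the length trend Nrcam and Gpc5 were not called (0.55 and 0.12) and Spock1 turned to -0.21, while Timp3 kept its call (-2.0, edgeR adjusted p = 0.000728). Leaving out 1 library moved Nrcam between 0.72 (without young AL mouse 3) and 1.4 (without young AL mouse 2), and Gpc5 between 0.72 (without young AL mouse 2) and 1.46 (without young AL mouse 3). Nrcam and Gpc5 each lost the call in 2 of the 13 fits (edgeR adjusted p up to 0.135 and 0.257), Spock1 in 5 and Timp3 in 0. With a depth term none of the 7 ageing calls remained by edgeR, but the changes moved in different directions. Timp3 was -1.07 (adjusted p = 0.797) and granule-like Csgalnact1 and Chst11 were 0.28 and 0.32, while Nrcam (1.11), Gpc5 (1.07), Spock1 (0.52) and granule-like Xylt1 (0.70) were larger than without it.

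Under acute restriction the oligodendrocyte-like class showed Spock1 higher, from 649 to 1023 CPM (log2 change 0.59, edgeR adjusted p = 0.00828). Xylt1 fell from 39.5 to 13.8 CPM (-1.20, edgeR adjusted p = 0.0168) and Chst3, a chondroitin 6-O-sulfotransferase, from 9.32 to 2.82 CPM with overlapping ranges (-1.57, edgeR adjusted p = 0.0449). Precursor markers in these sums were 403 to 426 CPM in acute DR and 478 to 543 CPM in old AL mice, and their part in these differences was not tested. The 3 calls became 0 without old AL mouse 4, 0 without acute DR mouse 2, 1 without acute DR mouse 3 and 5 without young AL mouse 1. Of the 13 fits that left out 1 library, Chst3 lost its call in 9 (-1.92 to -1.08, edgeR adjusted p up to 0.554), Xylt1 in 4 and Spock1 in 2. Scaled to total UMIs Chst3 was not called either (edgeR adjusted p = 0.0594). With a depth term none of the 3 was called by edgeR: Spock1 was 0.56 (adjusted p = 0.235), Xylt1 -0.88 (adjusted p = 0.505) and Chst3 -1.88 (adjusted p = 0.0968).

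The 72 list genes peaked in many classes: 10 in fibroblast-like, 9 in astrocyte-like, 8 in precursor-like, 6 in endothelial-like, 3 in PV-like, 3 in oligodendrocyte-like and 2 in Lamp5-like sums, the others elsewhere. A few that peaked where the 8 genes did are named here after their values were seen. Has2, a hyaluronan synthase, averaged 25.5 CPM in Lamp5-like and 23.3 CPM in precursor-like sums. Hapln3, the neighbour of Acan, was highest in the precursor-like class at 10.0 CPM. The proteoglycan Cspg4 (NG2) stood at 344 CPM there, and the receptor phosphatase Ptprz1 at 2548 CPM there and 2187 CPM in the astrocyte-like class. Of the lectican-cleaving proteases, Adamts15 peaked in the PV-like subclass (34.1 CPM) and Adamts4 in the oligodendrocyte-like class (82.5 CPM).

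Genes with the most similar pattern were ranked by Pearson correlation of log2(CPM + 1) over 18 classes and subclasses among 14594 genes, which share libraries and depth. Hapln2 had the closest neighbours (Gm44866, r = 0.96; Fbxw15, 0.96; Gm33594, 0.96). Tnr was nearest to Shisa7 (0.91), Myt1 (0.87) and its own antisense overlap Gm38039 (0.85). Hapln1 was nearest to 6530411M01Rik (0.90), Sox1ot (0.85) and Gm26512 (0.82). For Vcan the nearest was Emid1 (0.86), for Acan Gm26633 (0.86), for Bcan Afg1l (0.83), for Ncan Gm3764 (0.87) and for Hapln4 Pi4k2a (0.80). Pi4k2a was highest in the microglia-like class, where the Hapln4 mean was 10.9 ± 32.1 CPM and rests mostly on few UMIs.

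Among the 8 genes themselves the correlations were lower. Acan and Tnr reached 0.59, Ncan and Vcan 0.54, and Bcan and Ncan 0.52. The genomic neighbours Bcan and Hapln2 had a correlation of 0.00, Ncan and Hapln4 -0.21, and Vcan and Hapln1 0.43.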

How the data were processed

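Nuclei from 13 hippocampi were sequenced as 10x libraries. The deposited files hold whole-number UMI counts per gene and barcode, made by the authors with Cell Ranger 4.0.0, per the file headers and the submitters' processing notes, which also name build mm10 (GRCm38). The 8 genes and the gene lists were chosen with earlier results of these data known.

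The filter asked for 500 or more detected genes in a nucleus and a mitochondrial share of 5% or lower, which left 105427 of 105759 barcodes. Scrublet marked 7386 doublets (7.01%), the highest scores at 0.8% per 1000 barcodes of a library. Nuclei were clustered in scanpy 1.11.5 (2000 variable genes without the 8 genes and the matrix list, 30 components, 20 neighbours, leidenalg 0.10.2 at resolution 1). A cluster was named when at least 3 fixed markers of a class were raised and the mean log2 fold of its markers was at least 1. The name was withheld from clusters with 50% or more doublets or more markers of another class among their top genes. It was also withheld where the mean fold lay far below that of the class's best cluster. The scoring rule, unlike the markers, was set after seeing the clusters. UMIs were summed per mouse and class with at least 20 nuclei and tested in edgeR 4.0.16 under R 4.3.3 (quasi-likelihood, TMM scaling, filter on low counts by group, all 13 mice in 1 fit, Benjamini-Hochberg adjustment over all genes of a class, threshold 0.05). There were 11 classes and 4 interneuron subclasses with at least 2 mice in each group, and in 10 of the classes at least 1 of the 8 genes passed the filter. Shares of nuclei were taken after thinning to 1000 UMIs, leaving out shallower nuclei. Of the 8 genes, 47 gene and class pairs passed this filter on low counts, and the others were not tested.

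On simulated counts for the ageing comparison, 58.0% of genes changed by 1 on the log2 scale and 95.0% of those changed by 2 were recovered in the oligodendrocyte-like class (11378 genes), and 55.0% and 92.9% in the PV-like subclass (8377 genes). The changed genes were drawn only from genes above a minimum expected UMI count. Acan and Hapln4 in PV-like sums lie below it, so these shares do not apply to them or to other scarce genes. The text names all 8 genes, every list gene called, and for each of the 8 the genes of most similar pattern. Alternatives were DESeq2 1.42.0, no filter, a replicate block, a term for the libraries numbered 1, a depth term, removal of a gene-length trend, doublets kept, resolution 2, the 8 genes allowed in clustering, other thinning and leaving out each library. Scaling to total UMIs and leaving out the libraries numbered 1 were added after seeing the data. Intervals and limits from counts cover counting error only.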

Additional observations from a re-analysis of the deposited data

Results flagged for a closer look

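Signals in interneuron-like nuclei outside the named subclasses were looked at beside the tested ones. The unnamed interneuron cluster led by Sfta3-ps held Vcan at 484 CPM and Hapln1 at 343 CPM, both above the Lamp5-like means of 116 and 120 CPM. The unnamed interneuron cluster of 320 nuclei held Tnr at 828 CPM, above the PV-like mean of 488 CPM. Neither cluster met the naming rule: the mean marker log2 fold of its best match was 0.38 in the first and 0.35 in the second, below the minimum of 1. The clusters were not tested between groups on their own, while their nuclei are part of the inhibitory-like sums. In the 12 long-term DR groups of 4 mice that were checked, 0 held a mouse far from the others by Dixon's 95% critical value.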

How the results depend on the processing

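The count of calls among the 8 genes with age (1 as reported) was 3 with DESeq2, 3 with no filter, 3 with the term for the libraries numbered 1, 2 without those libraries (1 of them endothelial-like Tnr, with 1 young AL and 1 old AL library left, each assumed to vary like the other groups), and 0 with the depth term, with the length trend removed or with total UMI scaling. Leaving out 1 library gave 0 to 2. For long-term restriction (0 as reported) it was 1 with no filter, 1 without the libraries numbered 1, and 0 to 1 leaving out 1 library. The matrix list with age (7 as reported) gave 18 with DESeq2, 23 with no filter, 37 with the term for the libraries numbered 1, 26 without them, 5 with total UMI scaling, 3 with the length trend removed, 0 with the depth term, and 2 to 18 leaving out 1 library. Under long-term restriction the list (0 as reported) gave 2 with no filter, 1 with doublets kept, 1 without the libraries numbered 1 and 0 to 1 leaving out 1 library. Under acute restriction (3 as reported) it gave 5 with no filter, 0 with the depth term and 0 to 5 leaving out 1 library, and for long-term against acute (0 as reported) 2 with no filter, 1 without the libraries numbered 1 and 0 to 1 leaving out 1 library. The cause of these moves was not tested. In granule-like sums calls of all genes with age were 416 higher and 150 lower, and 116 higher and 190 lower with total UMI scaling. With DESeq2 they were 1053 higher and 701 lower. CA1-like calls of all genes with age went from 0 to 128 higher and 106 lower with DESeq2. Oligodendrocyte-like ones went from 417 higher and 477 lower to 230 and 237. Inhibitory-like ones went from 12 higher and 6 lower to 215 and 123 with DESeq2. The 3 DESeq2 calls among the 8 genes with age thus lay in granule-like, CA1-like and inhibitory-like classes, where DESeq2 called more of all genes too. Shares over all genes are not given for the other fits, so their counts stand without a background. No rise or fall in these counts is read as a result about the 8 genes or the list. The Tnr change in granule-like sums was 0.32 with the depth term, 0.15 with the length trend removed, 0.46 without the libraries numbered 1, 0.31 with total UMI scaling and 0.43 to 0.53 leaving out 1 library. Oligodendrocyte-like Spock1 turned to -0.21 with age when the length trend was removed.

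Replicate numbers, taken from the sample titles, did not meet the rule for pairing the mice, which asks for every same-numbered pair above 0.1: deviations of granule-like sums correlated at 0.363 to 0.782 among libraries numbered 1 but at -0.122 to 0.398 among those numbered 2 and -0.052 to 0.351 among those numbered 3, and at 0.356 in the 1 pair numbered 4, against a median of -0.087 between unlike numbers. File names number young AL and acute DR mice 2 and 3 differently, and a block on those numbers was not run, while number 1 is the same in both. With the replicate block the calls among the 8 genes were 3 with age and 1 under long-term restriction, those of the list were 34 and 1, and the Tnr change was 0.55.

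With doublets kept, precursor-like Vcan was 900 CPM and Tnr 3220 CPM, and at resolution 2 oligodendrocyte-like Hapln2 was 198 CPM. Shares of nuclei moved with depth: unthinned they were 11.9% (Acan), 68.0% (Bcan), 25.3% (Ncan), 91.5% (Vcan), 48.6% (Hapln1), 40.0% (Hapln2), 13.4% (Hapln4) and 99.7% (Tnr). Thinned to 2000 UMIs they were 1.98% (Acan), 3.49% (Hapln4), 58.0% (Bcan), 20.1% (Ncan), 83.2% (Vcan), 20.6% (Hapln1), 45.8% (Hapln2) and 99.5% (Tnr). Acan in PV-like sums rests on 1 to 22 UMIs per mouse.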
